A study of Mus musculus with 6 samples.

Results

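The 40 genes described here encode the enzymes that add methyl groups to lysines of histone proteins, or take them off again. They were chosen by symbol alone, as every gene on the array named Kdm1 to Kdm8, Kmt2, Kmt5, Setd with a number, Ezh, Ehmt, Suv39h, Nsd or Dot1l, and they are 40 of the 24704 named genes measured. The sex-linked Kdm5c, Kdm5d and Kdm6a were left out, and no probe set of the annotation used here carries the symbol Suv39h1. The set holds 25 methyltransferases, 13 demethylases with a JmjC domain and 2 flavin-dependent demethylases, Kdm1a and Kdm1b.

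Whole lungs were profiled from 3 mice of genotype Nfat5(EC)-/-, which lacked the osmosensitive transcription factor NFAT5 in endothelial cells (EC knockout), and from 3 Nfat5fl/fl controls. All 6 mice had spent 7 days in hypoxia. Ablation was induced at an age of 10 to 12 weeks by tamoxifen, 1 mg per day into the peritoneum on 5 days, while controls received the solvent miglyol, and 2 to 3 weeks of recovery followed in both groups. Genotype and tamoxifen therefore differed together, and neither the driver of the recombinase nor the sex of each mouse is given in the sources used here. According to the series design there were 4 male or female mice in a group, and lungs with adherent tissue such as thymus, or with a poor expression response to hypoxia, were dropped. Expression itself thus had a part in which lungs were kept. Values are log2 expression per gene as deposited, and a difference between groups is a log2 fold change, knockout minus control.

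Methylation of histone lysines marks the state of a gene. Methyl groups at H3K4 go with promoters and enhancers in use, and those at H3K36 and H3K79 with transcribed gene bodies. Those at H3K9 and H3K27, and the trimethyl mark at H4K20, go with silent chromatin. Methyltransferases draw the methyl group from S-adenosylmethionine. JmjC demethylases are dioxygenases that need molecular oxygen, iron and 2-oxoglutarate, which makes their activity sensitive to oxygen, and Kdm3a and Kdm4b are well-known genes induced by the hypoxia-inducible factor HIF. Flavin-dependent demethylases also pass electrons to oxygen but use FAD and not 2-oxoglutarate.

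The targeted gene was lower on the knockout arrays. Nfat5 stood at 4.46, 4.48 and 3.89 on knockout replicates 1, 3 and 4, against 6.65, 6.58 and 6.30 on control replicates 1, 3 and 4 (log2 fold change -2.23 ± 0.23, SE; limma, adjusted p = 0.00151). Arrays correlated across genes at 0.916 to 0.939 within the knockouts and at 0.968 to 0.970 within the controls. Every array had a median log2 value of 2.97 and a lower quartile of 2.02, and no detection calls came with the values. Surfactant protein gene Sftpc averaged 11.76 ± 0.49 in knockouts and 12.20 ± 0.06 in controls, and the club cell gene Scgb1a1 averaged 11.94 ± 0.23 in knockouts and 12.53 ± 0.00 in controls (SD, n = 3 each), levels near the top of the scale in both groups. Xist was 2.03 to 2.28 on the knockout arrays, 8.22 on control replicate 1 and 2.36 and 2.37 on the other control arrays. The median of 106 small nucleolar RNAs, another feature on which the groups stood apart, was 6.43 to 7.43 on knockout arrays and 4.01 to 4.20 on control arrays, and its part in the results below was not tested. In whole lung, fewer cells of a type and less RNA per cell cannot be told apart.

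In knockout lungs 16 of the 40 genes were lower and 6 were higher, and 18 did not pass the threshold of an adjusted p of 0.05 (limma, adjusted over all 24704 genes). The genes that fell were led by the H3K4 enzyme Kmt2c, its relative Kmt2e and the H3K36 enzyme Nsd1, each by more than 3-fold. All 4 H3K36 methyltransferases of the set were among the genes that fell. Those that rose were led by the H3K9 methyltransferase Ehmt2 (2.63-fold), the JmjC demethylase Kdm4b (2.56-fold) and the H3K4 methyltransferase Kmt2b (2.18-fold). Changes above 2-fold that passed the threshold were found for 11 genes that fell and 3 that rose. Over all 24704 genes 2125 fell and 1685 rose that far. The median log2 fold change of the 40 genes was -0.49, against 0.04 over all genes tested.

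The share called, 55.0% of the 40 genes, has to be read against a broad difference between these arrays. Of all genes tested 25.5% passed, 12.5% higher and 13.0% lower. Among genes above the median level, as 38 of these 40 were, 43.2% passed, 21.6% in each direction. Among 3331 protein-coding genes above the median level whose length lay between 25.6 and 77.9 kb, the quartiles of the 40 genes' lengths, 46.4% passed, 13.8% higher and 32.6% lower. The 19 enzymes within those limits of level and length had 10 lower (52.6%) and 1 higher (5.26%), and a difference from the other genes there was not tested. The groups did not overlap at 27 of the 40 genes, against 41.9% of all genes tested. Above the median level they did not overlap at 7303 of 12352 genes. Within those limits of level and length they did not overlap at 2093 of 3331 genes, beside 13 of the 19 enzymes. Calls with a change above 2-fold numbered 1860 lower and 1589 higher among the 12352 genes above the median level. Within the limits of level and length they numbered 770 lower and 253 higher of 3331 genes, beside 5 and 1 of the 19 enzymes.

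**Figure D1:**
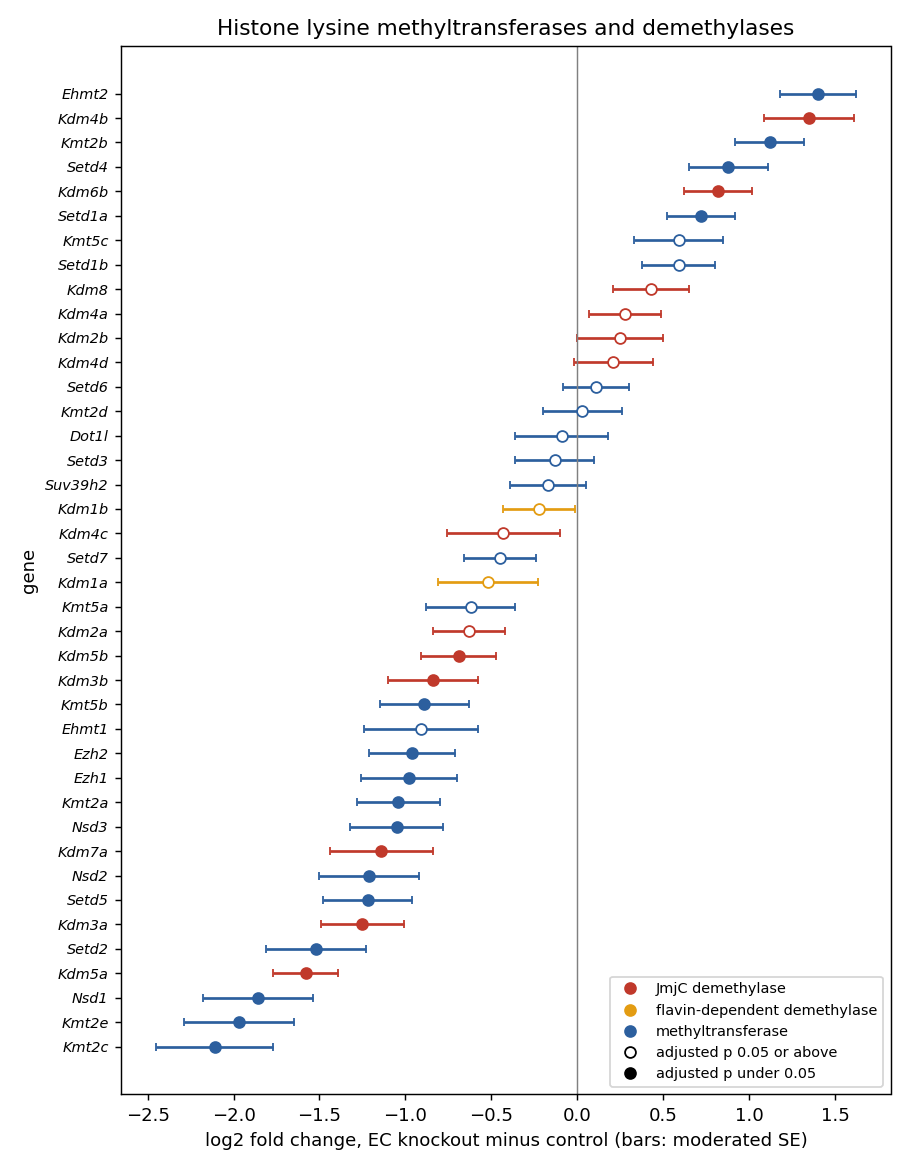
Log2 fold change of each of the 40 genes, EC knockout minus control, with limma's moderated SE as bars (3 arrays per group). Filled points passed the adjusted p of 0.05: 16 lie left of 0 and 6 right of it, and both JmjC demethylases and methyltransferases appear on either side.

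Promoter sequences are shown for 3 genes that carry the result, the most strongly lowered (Kmt2c), the lowered HIF-induced demethylase Kdm3a, and the most strongly raised (Ehmt2). Each is 300 bases of RefSeq sequence on build GRCm38.p6, 250 before and 50 after a start site, written 5′ to 3′ on the gene's strand. Capitals mark ACGTG or GCGTG, the core of the element that HIF binds, searched on both strands.
Kmt2c (chr5:25498734-25499033, minus strand): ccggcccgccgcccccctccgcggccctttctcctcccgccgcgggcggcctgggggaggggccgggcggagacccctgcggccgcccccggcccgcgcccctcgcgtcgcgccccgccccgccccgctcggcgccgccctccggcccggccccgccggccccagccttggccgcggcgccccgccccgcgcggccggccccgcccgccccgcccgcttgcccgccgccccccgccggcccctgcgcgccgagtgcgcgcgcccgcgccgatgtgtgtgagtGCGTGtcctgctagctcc
Kdm3a (chr6:71632868-71633167, minus strand): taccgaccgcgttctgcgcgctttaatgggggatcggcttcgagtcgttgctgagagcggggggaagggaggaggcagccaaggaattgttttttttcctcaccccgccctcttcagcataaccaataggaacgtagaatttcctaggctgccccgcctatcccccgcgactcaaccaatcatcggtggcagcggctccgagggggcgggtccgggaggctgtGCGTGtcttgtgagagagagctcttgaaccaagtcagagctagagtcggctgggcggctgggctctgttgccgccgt
Ehmt2 (chr17:34898224-34898523, plus strand): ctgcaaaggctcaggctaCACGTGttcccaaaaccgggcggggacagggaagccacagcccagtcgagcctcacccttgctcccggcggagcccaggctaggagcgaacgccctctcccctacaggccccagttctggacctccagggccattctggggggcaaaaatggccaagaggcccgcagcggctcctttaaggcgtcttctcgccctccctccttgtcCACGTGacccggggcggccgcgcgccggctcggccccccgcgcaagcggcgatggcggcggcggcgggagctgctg
The Kmt2c and Kdm3a windows each hold 1 GCGTG, while Ehmt2 holds CACGTG at 2 places, which reads as ACGTG on either strand. TGGAAA, the core of sites bound by NFAT proteins, was searched on both strands too and is in none of the 3 windows. Of the 29 genes of the set with a promoter in the table, 21 (72.4%) hold ACGTG or GCGTG, against 49.2% of 17492 protein-coding promoters of the same length, and 5 (17.2%) hold TGGAAA, against 19.6%. These promoters also had more CpG dinucleotides, a median of 27 against 13, and a median GC content of 62.7% against 56.3%. By direction, 8 of 10 promoters of lower genes and 2 of 3 of higher genes hold either core, beside the 21 of 29 over the set. Called genes without a promoter sequence here were Kdm3b, Kdm4b, Kdm5a, Kdm6b, Kmt2b, Kmt2e, Nsd1, Nsd2 and Nsd3. A match is a description of letters and was not tied to binding.

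Demethylases of the JmjC class, which use oxygen, moved in both directions. Of 13 measured, 5 were lower (Kdm5a, Kdm3a, Kdm7a, Kdm3b and Kdm5b), 2 were higher (Kdm4b and Kdm6b) and 6 did not pass. Their median was -0.43 on the log2 scale. The methyltransferases had 11 of 25 lower and 4 higher, with a median of -0.62. Both flavin-dependent enzymes were short of the threshold, Kdm1a at -0.52 ± 0.29 and Kdm1b at -0.22 ± 0.21 (SE; limma, adjusted p = 0.224 and 0.497), and their groups overlapped. Differences between the classes were not tested.

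Kdm5a (chr6:120364099-120444574), which removes methyl groups from H3K4, had the smallest adjusted p of the set. It stood at 2.75, 2.88 and 3.09 in the 3 knockout lungs, against 4.50, 4.59 and 4.38 in the controls, a log2 fold change of -1.58 ± 0.19 (SE; limma, adjusted p = 0.00191). Every knockout value lay more than 1 log2 unit below every control value. Its paralogue Kdm5b averaged 4.47 ± 0.35 in knockouts and 5.16 ± 0.09 in controls (SD, n = 3 each). That difference of -0.69 passed only just (limma, adjusted p = 0.0499). It did not pass in 5 of the 6 fits that left out 1 array, the exception being the fit without knockout replicate 3, nor under 7 other settings.

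Kdm3a (chr6:71588970-71632990), an H3K9 demethylase induced by HIF, was lower in knockout lungs. Its values were 4.28, 3.67 and 4.35 in knockouts and 5.51, 5.45 and 5.10 in controls (log2 fold change -1.25 ± 0.24, SE; limma, adjusted p = 0.00708). The lowest control exceeded the highest knockout by more than the range of the controls. The related Kdm3b averaged 4.57 ± 0.46 in knockouts and 5.41 ± 0.19 in controls (SD, n = 3 each; limma, adjusted p = 0.0413). This call did not hold without knockout replicate 1 or without any of the 3 control arrays. Kdm7a (chr6:39136620-39206773), a demethylase of H3K9 and H3K27, stood at 3.67, 4.08 and 2.87 in knockouts and at 4.87, 4.62 and 4.55 in controls. Its difference of -1.14 ± 0.30 (limma, adjusted p = 0.0235) was not called when any of the control arrays was left out.

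Kdm4b (chr17:56325970-56403774), a demethylase of H3K9 and H3K36 and a further HIF-induced gene, was higher in knockout lungs. It stood at 5.05, 4.48 and 5.25 in knockouts, against 3.85, 3.60 and 3.28 in controls, a log2 fold change of 1.35 ± 0.26 (SE; limma, adjusted p = 0.00658). The HIF-induced pair Kdm3a and Kdm4b thus lay on opposite sides of 0, with groups that did not overlap for either gene. The rest of the Kdm4 family did not pass, with Kdm4a at 0.28, Kdm4c at -0.43 and Kdm4d at 0.21. Kdm4d lay near or below the arrays' lower quartile of 2.02 (means of 2.07 in knockouts and 1.87 in controls), where a change could have been missed. Kdm6b (chr11:69398508-69420367), which removes methyl groups from H3K27, stood at 6.31, 6.58 and 6.74 in knockouts and at 5.73, 5.60 and 5.82 in controls. Its rise of 0.82 ± 0.20 (limma, adjusted p = 0.0162) was not called without control replicate 1 or without control replicate 3.

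Among JmjC enzymes short of the threshold were both H3K36 demethylases of the Kdm2 family. Kdm2a was at -0.63 ± 0.21, with knockout arrays all below the controls (limma, adjusted p = 0.0539), and Kdm2b was at 0.25 ± 0.25 with overlapping groups. Kdm8, a JmjC protein of debated histone activity, was at 0.43 ± 0.22.

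**Figure D2:**
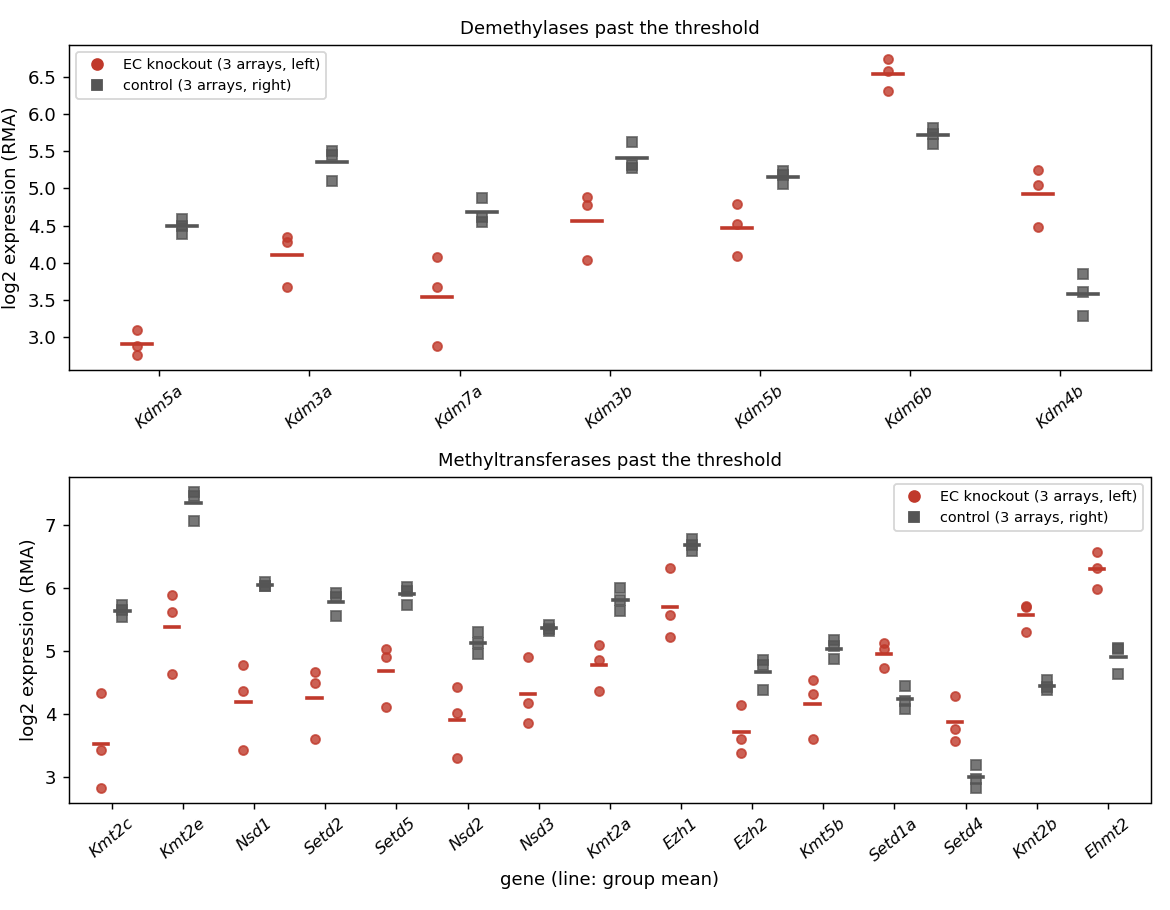
Log2 expression on each of the 3 EC knockout arrays (red circles) and 3 control arrays (grey squares) for the 7 demethylases and 15 methyltransferases past the threshold, with lines at group means. The groups do not overlap for any of the 22 genes, as for 6265 of all 6292 genes past the threshold. The knockout values of the lowered genes spread more widely than the control values.

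The H3K4 methyltransferases separated by family member. Kmt2c (chr5:25271795-25498855), the catalytic subunit of an enhancer complex, stood at 3.42, 4.33 and 2.82 in knockout lungs, against 5.73, 5.64 and 5.53 in controls, a log2 fold change of -2.11 ± 0.34 (SE; limma, adjusted p = 0.00385). Kmt2d, its closest relative and the alternative subunit of that complex, was at 0.03 ± 0.23, with means of 5.79 ± 0.37 in knockouts and 5.75 ± 0.09 in controls (SD, n = 3 each). Kmt2a, which methylates H3K4 at developmental genes such as the Hox clusters, averaged 4.77 ± 0.38 in knockouts and 5.81 ± 0.18 in controls, a difference of -1.04 (limma, adjusted p = 0.0132) that was not called without control replicate 1 or without control replicate 3. Its paralogue Kmt2b (chr7:30568855-30589056) went the other way, at 5.71, 5.29 and 5.69 in knockouts and 4.42, 4.38 and 4.53 in controls (1.12 ± 0.20; limma, adjusted p = 0.00520). The knockout and control values of Kmt2b were separated by more than the spread of either group.

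Kmt2e (chr5:23433036-23504235), a family member that binds methylated H3K4 and whose SET domain is regarded as inactive, stood at 5.61, 5.88 and 4.63 in knockouts and at 7.52, 7.45 and 7.06 in controls (-1.97 ± 0.32; limma, adjusted p = 0.00385). The other H3K4 enzymes, Setd1a and Setd1b, which give most of the trimethyl mark at promoters, both had knockout arrays above all controls. Setd1a (chr7:127777389-127800122) stood at 5.02, 4.72 and 5.12 in knockouts, against 4.20, 4.07 and 4.44 in controls (0.72 ± 0.20; limma, adjusted p = 0.0317). That call did not hold without knockout replicate 1 or 4, nor without control replicate 1 or 3. Setd1b was at 0.59 ± 0.21, short of the threshold (limma, adjusted p = 0.0713). Setd7, which adds a single methyl group, was at -0.45 ± 0.21.

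All 4 H3K36 methyltransferases of the set were lower. They are long genes, of 77.3 to 118.1 kb. In the bin of the longest protein-coding genes, described further on, 41.9% of those above the median level were lower. Nsd1 (chr13:55209782-55318325), which places the dimethyl mark, stood at 3.43, 4.78 and 4.36 in knockouts and at 6.02, 6.09 and 6.03 in controls (-1.86 ± 0.32; limma, adjusted p = 0.00461). The controls lay within 0.1 of each other, while the knockouts spanned more than 1 log2 unit. Setd2 (chr9:110532500-110618633), the enzyme of the trimethyl mark in transcribed genes, stood at 4.66, 4.49 and 3.60 in knockouts and at 5.85, 5.91 and 5.55 in controls (-1.52 ± 0.29; limma, adjusted p = 0.00657).

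The other Nsd enzymes had smaller differences over all 6 arrays. For Nsd2 this rested on knockout replicate 1, without which Nsd1 was at -1.48, Nsd2 at -1.47 and Nsd3 at -0.82. Nsd2 (chr5:33820676-33897966) stood at 4.42, 4.01 and 3.29 in knockouts and at 4.95, 5.12 and 5.29 in controls (-1.21 ± 0.29; limma, adjusted p = 0.0159). Nsd3 (chr8:25601601-25719667) stood at 3.85, 4.90 and 4.17 in knockouts and at 5.32, 5.34 and 5.40 in controls (-1.05 ± 0.27; limma, adjusted p = 0.0216). The call of Nsd2 was lost without control replicate 3 or 4, and that of Nsd3 without knockout replicate 4 or any of the control arrays. On the H3K36 demethylase side, Kdm2a, Kdm2b, Kdm4a and Kdm4c did not pass, and Kdm4b was higher.

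The H3K9 methyltransferases Ehmt1 and Ehmt2, which act together as a heterodimer (GLP and G9a), moved unequally. Ehmt2 (chr17:34898463-34914073) stood at 6.32, 5.98 and 6.57 in knockout lungs, against 4.63, 5.02 and 5.04 in controls, a log2 fold change of 1.40 ± 0.22 (SE; limma, adjusted p = 0.00378). Ehmt1 (chr2:24790769-24919643) stood at 2.92, 4.36 and 3.61 in knockouts and at 4.45, 4.57 and 4.59 in controls. Its difference of -0.91 ± 0.33 did not pass (limma, adjusted p = 0.0739), though the groups did not overlap. Suv39h2, which makes the trimethyl mark of constitutive heterochromatin, stood at 1.92, 1.44 and 1.69 in knockouts and at 2.05, 1.59 and 1.93 in controls, near or below the lower quartile of the arrays, and its groups overlapped.

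Both H3K27 methyltransferases of the Polycomb complex PRC2 were lower by nearly the same amount. Ezh2 (chr6:47530274-47595270), the form typical of dividing cells, stood at 3.38, 4.14 and 3.60 in knockouts and at 4.78, 4.85 and 4.37 in controls (-0.96 ± 0.25; limma, adjusted p = 0.0227). Ezh1 (chr11:101191115-101226463), the form typical of resting cells, stood at 5.56, 6.31 and 5.22 in knockouts and at 6.59, 6.77 and 6.68 in controls (-0.98 ± 0.28; limma, adjusted p = 0.0309). Both calls depended on single arrays. That of Ezh2 was lost without knockout replicate 1 or 4 and without control replicate 1 or 3, and that of Ezh1 was lost on leaving out any array other than knockout replicate 3. Of 11 measured proliferation genes 4 were also lower and 0 higher, among them Mki67 at -1.71 ± 0.32 and Top2a at -1.90 ± 0.27. Among all genes above the median level 21.6% were lower. The 7 proliferation genes that did not pass went both ways, from -0.54 to 0.62, and the median of the list was -0.14. The summed linear level of that list was 376 to 485 on knockout arrays and 560 to 634 on control arrays, and its part in the value of Ezh2 was not tested.

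Of the 3 H4K20 enzymes 1 passed, Kmt5b, which adds the later methyl groups. It averaged 4.15 ± 0.50 in knockouts and 5.03 ± 0.16 in controls (SD, n = 3 each; limma, adjusted p = 0.0378), and the call was lost without knockout replicate 4 or any of the control arrays. Kmt5a, which adds the first methyl group, was at -0.62 ± 0.26 and Kmt5c at 0.59 ± 0.26, and neither passed. Dot1l, the H3K79 enzyme, stood at 4.63, 4.95 and 5.61 in knockouts and at 4.90, 5.20 and 5.34 in controls, with overlapping groups and a difference of -0.09 ± 0.27.

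Among SET-domain genes with other or disputed substrates, Setd5 (chr6:113077262-113153432) was lower. It stood at 5.03, 4.90 and 4.11 in knockouts and at 6.01, 5.95 and 5.73 in controls (-1.22 ± 0.26; limma, adjusted p = 0.0111). Setd4 (chr16:93583457-93604791) was higher, at 4.28, 3.57 and 3.75 in knockouts and 2.82, 2.96 and 3.19 in controls (0.88 ± 0.23; limma, adjusted p = 0.0248). Both calls were lost without control replicate 1 or without control replicate 3. Setd3, which methylates a histidine of actin, was at -0.13 ± 0.23, and Setd6, which methylates the NF-κB subunit RelA, at 0.11 ± 0.19.

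Enzymes that share a mark were next compared within each array, as the log2 value of the first gene minus that of the second. Changes of these differences follow from the values given above and are no separate evidence. A shift common to all genes of an array, which the common quantiles of these arrays already hide, cancels. A shift that goes with gene length, as described further on, does not. The absolute size of such a difference depends on the probes, and only its change between groups was read. Of 11 pairs measured, 6 had groups that did not overlap, a count given as a description, since no share over other gene pairs was computed. With 3 arrays per group the smallest two-sided exact permutation p is 0.10, which becomes 0.183 after adjustment over the 11 pairs, so none can pass.

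Ehmt2 minus Ehmt1 was 3.40, 1.62 and 2.97 in knockout lungs, against 0.18, 0.45 and 0.44 in controls, a change of 2.30. Kmt2b minus Kmt2a was 0.86, 0.19 and 1.33 in knockouts and -1.38, -1.62 and -1.10 in controls, a change of 2.16. Kmt2d minus Kmt2c was 2.45, 1.05 and 3.30 in knockouts and -0.04, 0.07 and 0.33 in controls, a change of 2.15. In each of these the knockout values all lay above the controls, and knockout replicate 3 lay nearest to them. Each sets a shorter gene against a longer one, 15.6 against 128.9 kb, 20.2 against 78.0 kb and 42.4 against 227.1 kb. With the trend in length removed the changes were 1.81 for Ehmt2 minus Ehmt1, 1.79 for Kmt2b minus Kmt2a and 1.99 for Kmt2d minus Kmt2c, still without overlap. Smaller changes without overlap were found for Kmt5c minus Kmt5b (1.48, and 0.97 with overlap once the trend was removed), Kdm5b minus Kdm5a (0.89) and Kdm2b minus Kdm2a (0.88). Ezh2 minus Ezh1 averaged -1.99 ± 0.32 in knockouts and -2.01 ± 0.26 in controls (SD, n = 3 each), and Setd1b minus Setd1a 0.28 ± 0.15 and 0.41 ± 0.14, with overlapping groups for both. The groups also overlapped for Kdm1b minus Kdm1a (0.31), Kdm3b minus Kdm3a (0.41) and Nsd2 minus Nsd1 (0.65).

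**Figure D3:**
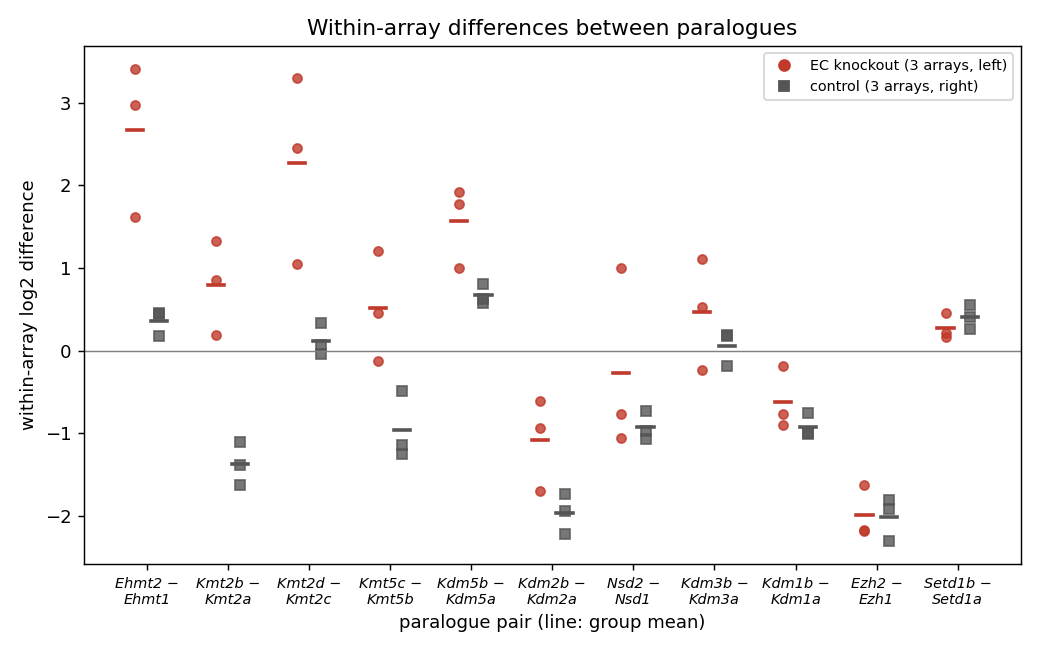
Within-array log2 difference of 11 paralogue pairs on 3 EC knockout arrays (red circles) and 3 control arrays (grey squares), with lines at group means. Ehmt2 against Ehmt1, Kmt2b against Kmt2a and Kmt2d against Kmt2c moved by more than 2 log2 units, while Ezh2 against Ezh1 changed by 0.02.

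The direction of change went with gene length, a feature the choice of genes did not use. The 6 higher genes had a median length of 21.6 kb (15.6 to 77.8 kb) and the 16 lower genes one of 74.4 kb (35.3 to 227.1 kb). Kdm4b, at 77.8 kb, was the exception among the higher genes. Across the 40 genes log2 fold change and length had a Spearman rho of -0.64, and across 19686 protein-coding genes of -0.32, where genes share the same 6 arrays and are not independent replicates. Protein-coding genes were placed in 5 length bins of equal number, and those above the median level were set beside the enzymes above it. In the bin of the longest, 41.9% of such genes were lower and 6.94% higher, against 13 lower and 1 higher of 19 enzymes (68.4% and 5.26%). In the next bin 31.1% were lower and 14.5% higher, against 3 lower and 0 higher of 10 enzymes. In the middle bin 16.4% were lower and 22.3% higher, against 0 lower and 5 higher of 7 enzymes, and the bin below it held 2 enzymes, of which 0 passed. These differences from the other genes were not tested. With the average trend in length removed from each array, 16 of the 22 calls were kept, among them all 6 higher genes. Those lost were Ezh2, Kdm3b, Kdm5b, Kdm7a, Kmt5b and Nsd3. Whether length itself sets these values was not tested.

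**Figure D4:**
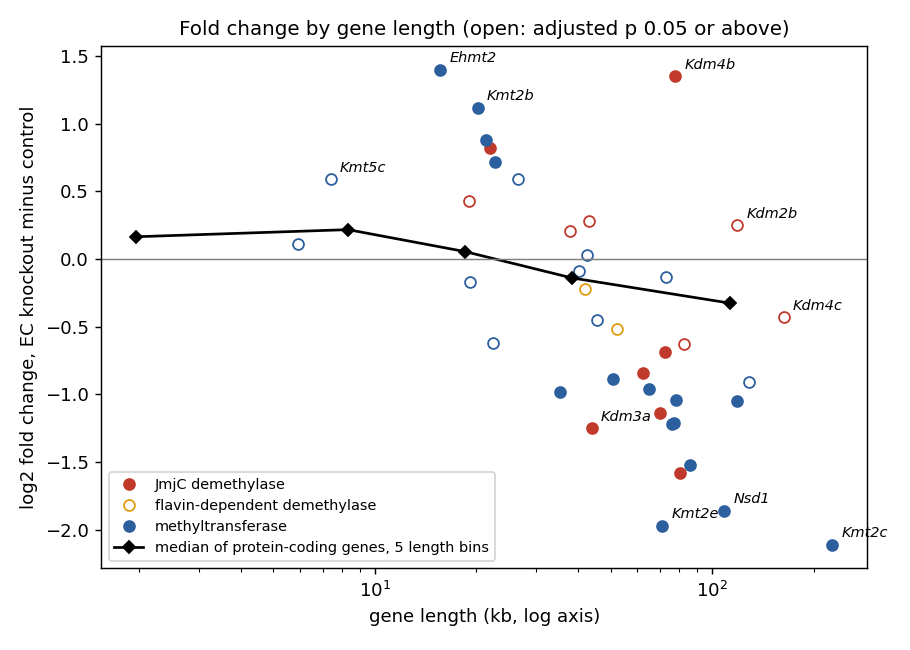
Log2 fold change of the 40 genes (points, filled where adjusted p was under 0.05) against gene length in kb on a log axis, with the median of protein-coding genes in 5 length bins (black diamonds). Lowered enzymes lie at 35.3 kb or more and most raised ones near 20 kb, with Kdm4b at 77.8 kb apart from them.

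The knockout arrays were not alike in these genes. Among the 16 lowered genes, knockout replicate 4 had the lowest knockout value in 10 and knockout replicate 3 the highest in 10. Among the 6 raised genes, knockout replicate 3 had the lowest knockout value in 5 and knockout replicate 4 the highest in 4. The SD of a gene had a median over the 40 genes of 0.38 in knockouts and 0.18 in controls, and was larger in knockouts at 34 of them. This wider spread was not particular to the set. Over 12352 genes above the median level the medians were 0.37 and 0.19, and 9464 had the larger SD in knockouts. Knockout replicate 3 also correlated best with the control arrays across all genes, at 0.892 to 0.919, against 0.829 to 0.871 for the other knockouts.

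Of the 22 calls, 9 held in all 6 fits that left out 1 array: Ehmt2, Kdm4b and Kmt2b, which were higher, and Kmt2c, Kmt2e, Nsd1, Kdm5a, Setd2 and Kdm3a, which were lower. With Xist as a covariate the same 9 held, but Xist was high on control replicate 1 alone, so that this fit is close to the fit without that array and is no separate check. None of the 22 changed sign under any alternative run. Without control replicate 3 the counts were 3 higher and 6 lower, without control replicate 1 they were 3 and 7, and without control replicate 4 they were 7 and 9. Without knockout replicate 1 there were 6 higher and 12 lower, without knockout replicate 4 there were 5 and 11, and without knockout replicate 3 there were 6 and 18.

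Subunits of the complexes in which these enzymes work also changed in both directions. Of 11 PRC2 subunits and cofactors 4 were lower and 3 higher (median log2 fold change -0.31). Epop, a cofactor of PRC2, rose by 1.68 ± 0.25 and the accessory subunit Phf1 by 1.11 ± 0.20, while the accessory subunits Mtf2 and Jarid2 were at -1.48 ± 0.33 and -0.93 ± 0.21. Of 14 subunits of the Kmt2 and Setd1 complexes 6 were lower and 3 higher (median -0.49). Pagr1a, a subunit shared by the Kmt2c and Kmt2d complexes, rose by 1.60 ± 0.19, while their cofactor Ncoa6 was at -1.82 ± 0.33 and Bod1l, a partner of Setd1a, at -2.26 ± 0.35. Of 10 genes of the complex around Kdm1a 3 were lower, with the deacetylase Hdac2 at -1.55 ± 0.24 and Zmym2 at -1.39 ± 0.20, and 2 were higher, Hmg20b at 1.67 ± 0.19 and Gse1 at 1.11 ± 0.19.

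A list of 8 readers of methylated H3K9 and partners of H3K9 methyltransferases had 4 lower and 3 higher. Among the readers the heterochromatin protein Cbx5 was at -1.39 ± 0.24 and Mphosph8 at -1.14 ± 0.23, while Cbx3 was at 1.42 ± 0.26. Trim28, a corepressor that recruits Setdb1 and is no reader of the mark, was at 1.04 ± 0.20. Of 12 lysine methyltransferases outside the symbol rule 4 were lower and 1 higher, among them the H3K9 enzymes Setdb2 at -1.96 ± 0.41 and Setdb1 at -1.02 ± 0.22. Of 11 other JmjC proteins 3 were lower and 3 higher, led by Jmjd1c, a relative of Kdm3a, at -2.07 ± 0.25 and Riox2 at -1.26 ± 0.18. Arginine methyltransferases had 1 of 10 lower, Prmt5 at -1.37 ± 0.29, and 2 higher, Prmt2 and Carm1.

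A list of oxygen-sensing hydroxylases, the TET dioxygenases of DNA and Vhl, the ubiquitin ligase subunit that binds hydroxylated HIF, had 1 of 8 higher, the prolyl hydroxylase Egln2 at 1.58 ± 0.18, and 1 lower, Tet2 at -1.96 ± 0.32. A list of enzymes that make or use 2-oxoglutarate or act on succinate and fumarate, which inhibit dioxygenases, had 6 of 12 lower and 1 higher (median -0.82). Of those called, Sdha and Fh1 (lower) and Sdhb (higher) act on succinate or fumarate. The isocitrate dehydrogenase genes, which make 2-oxoglutarate, included Idh3g at -1.27 ± 0.18, Idh1 at -1.18 ± 0.26 and Idh3b at -1.14 ± 0.26. Idh3a was lower too, at -1.94 ± 0.46, while Idh2, at 0.36 ± 0.23, went the other way and did not pass. Of 6 genes of S-adenosylmethionine supply, Ahcy, which clears the product of methylation, rose by 2.33 ± 0.31, and Mtr (-0.99 ± 0.22) and Ahcyl1 (-1.22 ± 0.29) were lower. Errors are SE from the same limma fit, and each count stands beside the 12.5% higher and 13.0% lower of all genes tested. Among genes above the median level the share was 21.6% in each direction, and a difference of any list from other genes was not tested.

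Lists of cell type markers did not all change alike. Their counts stand beside the same shares, 12.5% higher and 13.0% lower of all genes, and 21.6% each way above the median level. Of 10 endothelial genes 5 were lower and 3 higher, with a summed linear level of 1848 to 2138 on knockout arrays and 3076 to 3752 on control arrays. The brightest of them, Cdh5 and Pecam1, carried that difference in the sum. The other 8 summed to 1045 to 1308 on knockout arrays and 971 to 1027 on control arrays, a choice made after the values were seen. Within these 8, opposite changes offset each other. Tek (-2.01), Emcn (-1.62) and Erg (-1.06) were lower, while Vwf (1.61), Egfl7 (1.06) and Cldn5 (0.91) were higher. Kdr (-0.91) and Tie1 (0.57) did not pass. Of 7 alveolar macrophage genes 2 were lower and 0 higher, with sums of 186 to 337 on knockout arrays and 423 to 651 on control arrays. Chil3, with the highest control mean of that list (7.64), was at -1.75 ± 0.67 and did not pass. Siglecf was at -0.45, and the others that did not pass were at 0.06 to 0.39. A macrophage sum without the brightest genes was not computed. The groups did not overlap in the sums over the 10 endothelial or the 7 macrophage genes. Of 7 alveolar type 2 genes 2 were lower and 1 higher, with sums of 5132 to 8683 on knockout arrays and 8559 to 9668 on control arrays. Of 6 ciliated airway genes 3 were lower and 1 higher, with sums of 111 to 155 on knockout arrays and 116 to 142 on control arrays. Both sums overlapped between groups. T cell and thymus genes had 1 of 10 higher and 0 lower, with sums of 77.3 to 105 on knockout arrays and 66.5 to 88.6 on control arrays. Smooth muscle genes had 0 of 6 past the threshold, with sums of 504 to 570 on knockout arrays and 355 to 552 on control arrays. Values of this kind have no zero, so absence of a marker could not be read. The part of these markers in the values of the histone enzymes was not tested.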

How the data were processed

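Whole-lung RNA from 3 EC knockout and 3 control mice was labelled as cRNA and measured on single-colour Affymetrix arrays. Each deposited value is a log2 level of a probe set, which the authors summarised by RMA, as the submitters' processing notes name it. Its version, the probe set definition and the build are not stated there. The columns share common quantiles, which hides a shift of all genes. Background correction could not be varied, as no scanner data were used. Precision is limited by the small number of arrays.

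Of 25428 probe sets, 24705 had 1 symbol, 0 had several and 723 were unnamed here; the brighter probe set was kept per symbol, which left 24704 genes. RefSeq (GRCm38.p6) supplied positions and lengths for 24672 genes. Knockout and control were compared with limma 3.58.1 in R 4.3.3 (lmFit, eBayes), with Benjamini-Hochberg adjustment over all genes, a threshold of 0.05 and no filter on dim genes. Errors of fold changes are moderated SEs. The procedure was tested on simulated data. Pairs were compared by exact permutation. Summed levels add values turned back to the linear scale.

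Members, lists, pairs and the rule for named genes (every member past the threshold, a fixed group of paralogues, and up to 4 genes of smallest p per list) were chosen with earlier results of these data known. Arrays were treated as replicates. The limma p-values set the group difference against the spread between these arrays, moderated across genes. Alternatives are given in the closing section.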

Additional observations from a re-analysis of the deposited data

How the results depend on the processing

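Over the alternatives run, 660 of 756 log2 fold changes of the 40 genes kept their direction and side of the threshold, 80 lost a call, 7 gained a call and 9 changed sign. The sign changes were all in genes short of the threshold in every fit. Kmt2d was at -0.05 with array weights, at -0.01 with an Xist covariate and at -0.13 to 0.24 when 1 array was left out. Dot1l was at 0.11 after removal of the length trend and at -0.36 to 0.13 when 1 array was left out, and Setd3 (0.20) and Setd6 (-0.16) turned with that removal. Under the Xist covariate, which sets control replicate 1 apart, 2827 of all genes passed (against 6292), 3 of the 40 higher and 6 lower, which divides into 1 and 2 JmjC demethylases and 2 and 4 methyltransferases, and 15 and 23 genes of the other lists. At an adjusted p of 0.01 the counts were 2560, 3 and 6, 1 and 2, 2 and 4, and 15 and 21. After the length trend was taken out of the protein-coding genes, 10 of the 40 were lower, 2 of them JmjC demethylases. Leaving out 1 array at a time gave 2882 to 6155 genes in all, 3 to 7 of the 40 higher and 6 to 18 lower, 1 to 2 and 2 to 5 JmjC demethylases, 2 to 5 and 4 to 12 methyltransferases, 15 to 27 and 24 to 48 genes of the other lists, and 6 to 7 pairs without overlap. Of all genes the fewest passed without control replicate 3, and the cause was not tested. Pairs without overlap numbered 5 with cyclic loess and 5 with the length trend removed. Filters on mean level (at the median or the 25th percentile), median scaling, cyclic loess, an intensity trend, array weights, averaged or unnamed probe sets and, added after seeing the data, protein-coding genes only moved no count by more than 1.5 times. The groups share replicate numbers, but deviations of same-numbered arrays correlated at 0.062, -0.013 and 0.004, and not every array correlated best with its own number, so the numbers were not taken as pairs. With the replicate number as a block, 6082 genes passed, and 21 of the 22 calls were kept, Kdm5b being lost.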
